A study of Homo sapiens with 38 samples.

Results

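A549 cells depleted of ORMDL3 were compared before and after 4 h of interleukin 1 beta (IL1B), the cytokine that starts NF-kB signalling through the IL1 receptor. A549 is a human lung epithelial line that grew from an adenocarcinoma and keeps some features of alveolar type II cells. The comparison took the 4 Affymetrix arrays labelled ORMDL3 knockdown at 4 h and the 3 labelled ORMDL3 knockdown at 0 h, 7 of the 38 arrays of the series. Every array was from this 1 cell line. In both groups a pool of siRNAs against ORMDL3 had acted for 48 h, after which the cells stood for 24 h without serum. The 4 h group then received 1 ng/ml IL1B and the 0 h group was taken untreated. The depletion was transient and partial, and both groups carried it. The control arm, used here for 8 arrays, had 4 arrays at 0 h and 4 at 4 h with the same times and dose, and the sources used here do not name its transfection. Arm, hour and replicate number came from the labels. Nothing there says that the replicates come from separate cultures, so the p-values speak only of spread between these arrays, which may be technical. No untreated array was available at 4 h, so IL1B and the further hours in culture cannot be told apart.

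IL1B binds the receptor IL1R1 with its partner IL1RAP, and the adaptor MYD88 and the IRAK kinases pass the signal to TRAF6 and the kinase TAK1. One branch frees the NF-kB dimers from their IkB inhibitors, and another activates the MAP kinases and AP-1. In airway and alveolar epithelium the response is known for chemokines that draw neutrophils and lymphocytes, for adhesion molecules and for fast feedback inhibitors such as IkB alpha and A20. ORMDL3 sits in the endoplasmic reticulum membrane and restrains serine palmitoyltransferase, the first enzyme of sphingolipid synthesis, and its gene lies in a region linked to childhood asthma.

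The letters GGG, then any 3 bases, then TTCC are a common form of the DNA element to which NF-kB dimers bind. They were searched on both strands in the 250 bases before the start of each gene, with RefSeq promoters of build GRCh38.p14. Of all 35114 RefSeq promoters searched 5.67% held the letters, and of the 9530 measured genes with a promoter 6.63% did. The share was 8.66% of 1328 genes that rose, 16% of 256 that rose at least 2-fold and 25.7% of 74 that rose at least 4-fold. It was 6.23% of 1862 genes that fell and 5.81% of 86 that fell at least 2-fold. A promoter counted once however many matches it held, overlap with other motifs was not examined, and these shares describe letters, not binding. Stretches are given below for 10 named genes that rose and held a match. They are on the gene's strand with the letters, or their reverse complement (GGAA, any 3 bases, CCC), in capitals. The 10 were chosen to show cytokines and chemokines, an adhesion molecule, feedback inhibitors, a receptor and a sphingolipid enzyme. No match was recorded for CCL5, ICAM1 or CXCL8, which rose strongly. Only this form of the element was searched, and only in genes with a promoter sequence. A missing match therefore does not show that a promoter lacks NF-kB elements. The search gave 1 match each for CCN2, ID2, ANKRD1 and PTGER2, which fell.
CCL20 (chr2:227813743-227813792, plus strand): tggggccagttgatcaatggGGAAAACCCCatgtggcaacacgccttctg
CXCL2 (chr4:74099243-74099292, minus strand): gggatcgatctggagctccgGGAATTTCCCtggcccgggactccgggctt
CXCL3 (chr4:74038738-74038787, minus strand): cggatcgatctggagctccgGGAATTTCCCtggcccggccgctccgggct
CXCL5 (chr4:73998738-73998787, minus strand): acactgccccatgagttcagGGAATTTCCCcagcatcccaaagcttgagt
IL6 (chr7:22727107-22727156, plus strand): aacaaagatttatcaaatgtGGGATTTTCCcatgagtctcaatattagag
SELE (chr1:169734144-169734193, minus strand): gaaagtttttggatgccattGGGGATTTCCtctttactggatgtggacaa
TNFAIP3 (chr6:137867184-137867233, plus strand): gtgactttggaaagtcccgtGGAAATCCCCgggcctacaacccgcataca
NFKBIA (chr14:35404801-35404850, minus strand): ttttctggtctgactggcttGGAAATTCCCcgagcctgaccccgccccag
TNFRSF9 (chr1:7940883-7940932, minus strand): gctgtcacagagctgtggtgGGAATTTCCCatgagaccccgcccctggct
SGPP2 (chr2:222423829-222423878, plus strand): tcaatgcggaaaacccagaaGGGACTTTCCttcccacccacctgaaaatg
Where a promoter held 2 matches, the capitals mark 1 of them. In CXCL2, CXCL3, CXCL5 and TNFRSF9 the 2 matches are 1 site read on both strands, shifted by 1 base. The marked match lay between 45 and 129 bases before the start in these genes. CXCL2 and CXCL3 shared the letters GGAATTTCCC within nearly the same stretch, and CXCL5 and TNFRSF9 carried the same 10 letters in other surroundings.

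ORMDL3 was at 5.49, 5.19 and 5.47 in the knockdown arrays before IL1B and at 5.55, 5.51, 5.44 and 5.33 after 4 h, on the log2 scale of the deposited values. The control arrays were at 7.36, 7.24, 7.18 and 6.91 at 0 h and at 7.52, 7.12, 7.11 and 6.78 at 4 h. No knockdown array overlapped a control array. The knockdown level was 28.9% of the control level at 0 h and 31.3% at 4 h (exact two-sided permutation p = 0.0286 at each hour, the smallest that these group sizes allow). These shares compare array levels, which include background signal. Between 0 and 4 h within the knockdown arm the levels overlapped, with a difference of 0.07 ± 0.12 (exact two-sided permutation p = 0.514).

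The array medians of the series lay between 8.02 and 8.19, and no 2 arrays held the same values. Of 20 lung epithelial markers listed, 9 were measured: EPCAM, KRT8, KRT18, KRT19, CDH1, ABCA3, LAMP3, MUC1 and SCGB1A1. The surfactant genes and NAPSA were listed but had no probe set with 1 gene symbol, so the alveolar label was not checked against them. LAMP3, a lamellar body protein of alveolar type II cells, rose by 2.45 ± 0.09 and the mucin MUC1 by 0.72 ± 0.12. KRT19, a keratin, fell by 0.59 ± 0.10 and the cadherin CDH1 by 0.45 ± 0.11. Of the 9 lung epithelial markers 2 rose, 3 fell and 4 did not pass, with a median of -0.17. Of 4 leukocyte markers measured (CD14, CD68, ITGAM and ITGAX), the integrin gene ITGAM rose, by 0.37 ± 0.09. Of 3 fibroblast and endothelial markers measured (COL1A1, ACTA2 and CDH5), the endothelial cadherin CDH5 rose, by 1.68 ± 0.12. In bulk RNA, fewer cells of a type and less RNA per cell cannot be told apart. Every array was labelled as the 1 line A549, and any part of other cells in these values was not tested.

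Between 0 and 4 h of IL1B, 4354 of the 14488 probe sets changed at a Benjamini-Hochberg adjusted p under 0.05 by limma, which is 30.1% of those tested. Of these, 1824 rose, 12.6% of all, and 2530 fell, 17.5% of all. The rises reached further than the falls: 371 probe sets rose at least 2-fold and 118 fell at least 2-fold, 2.56% and 0.814% of all. A rise of over 8-fold was seen for 33 probe sets and a fall of over 4-fold for 2. The median change of all probe sets was -0.05 on the log2 scale. With each array's median subtracted, 2111 rose and 2039 fell, so the excess of falls depends on the normalization. The counts given below for gene lists stand beside the shares of all probe sets called up and down. The lists were chosen with earlier results of these data known, so their counts and medians are descriptions only. A change is given below as the log2 difference of group means ± its standard error from limma, and a gene is said to have risen or fallen only where it passed the adjusted threshold.

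**Figure D1:**
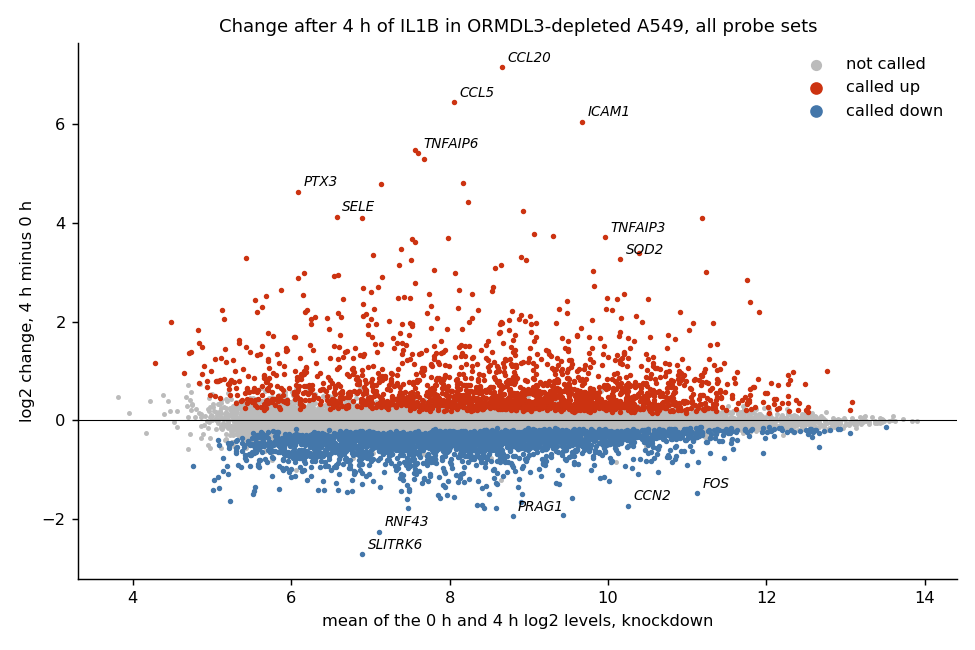
Log2 change from 0 h to 4 h in ORMDL3-depleted A549 (y axis) against the mean of the 0 h and 4 h log2 levels (x axis) for all 14488 probe sets, with 1824 called up in red and 2530 called down in blue. The strongest rise is that of CCL20 at 7.16 and the strongest fall that of SLITRK6 at -2.72.

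The largest rises were those of the chemokines CCL20 and CCL5. CCL20, which draws dendritic cells and memory lymphocytes through CCR6, was at 5.32, 4.52 and 5.42 before IL1B and at 12.40, 12.21, 12.19 and 12.18 after 4 h. The groups lay far apart, and replicate 2 was the lowest of the 0 h arrays. CCL20 rose by 7.16 ± 0.16 (adjusted p = 5.14e-27), a 143-fold change. CCL5, a chemokine for T cells and monocytes, was at 5.20, 4.49 and 4.82 before IL1B and at 11.41, 11.25, 11.16 and 11.30 after 4 h. It rose 87.0-fold, by 6.44 ± 0.16 (adjusted p = 3.66e-26), again without overlap of the groups. Of 8 CC chemokines and fractalkine measured, 5 rose and 3 did not pass the test, with a median change of 2.76. CX3CL1, a membrane-bound chemokine, rose by 3.62 ± 0.16. CCL2, a chemokine for monocytes, was already at 10.33 ± 0.16 (SD, n = 3) at 0 h and rose to 13.18 ± 0.02 (SD, n = 4).

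All 5 neutrophil-attracting CXC chemokines measured rose, with a median of 3.00. CXCL8, the main neutrophil chemokine of human epithelium, was at 9.82, 9.66 and 9.76 before IL1B and at 12.85, 12.62, 12.77 and 12.73 after 4 h. Its groups did not overlap and every 4 h array was above 12. It rose 7.99-fold (adjusted p = 4.59e-21). CXCL3 rose by 3.24 ± 0.14, CXCL2 by 3.02 ± 0.12 and CXCL5 by 2.20 ± 0.10, and upstream letters of these 3 are printed above. Of 3 interferon-type and other CXC chemokines measured, 2 rose: CXCL10 by 3.30 ± 0.19 and CXCL11 by 1.36 ± 0.20, both ligands of CXCR3, a chemokine receptor on T cells. CXCL10 was at 7.16, 7.18, 7.16 and 6.80 in the 4 h arrays, with replicate 4 the lowest.

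**Figure D2:**
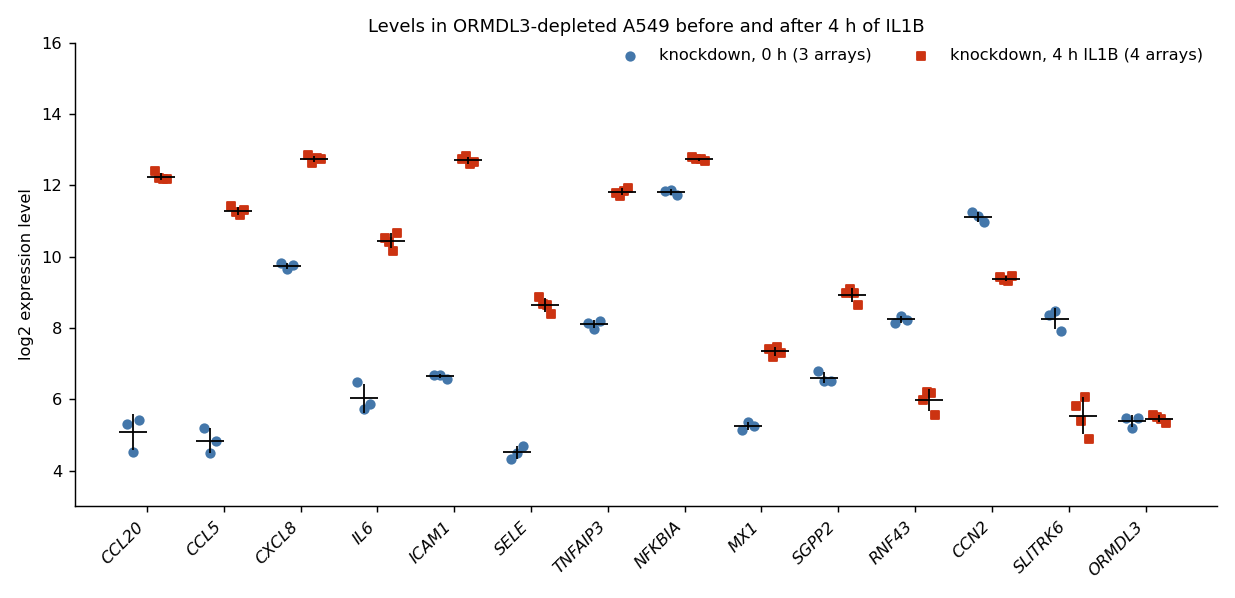
Log2 level of 14 genes (y axis) in the 3 knockdown arrays at 0 h (blue) and the 4 at 4 h of IL1B (red), with the mean as a horizontal bar and the SD as a vertical bar. CCL20 goes from 5.08 to 12.24 on average and RNF43 from 8.24 to 5.98, while ORMDL3 stays between 5.19 and 5.55.

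Among interleukins, colony-stimulating factors and TNF-family ligands, 14 of 19 measured rose and the other 5 did not pass the test. IL6, the inducer of the acute-phase response, was at 6.48, 5.74 and 5.86 before IL1B and at 10.53, 10.42, 10.17 and 10.67 after 4 h. The 0 h array of replicate 1 was the highest of its group and still lay far below every 4 h array. IL6 rose by 4.42 ± 0.13 (adjusted p = 1.15e-23), or 21.4-fold. IL1A rose by 5.47 ± 0.19 and IL1B itself by 4.79 ± 0.16, so transcripts of both IL1 receptor agonists were higher. CSF3, the growth factor of neutrophils, rose by 4.81 ± 0.18. EBI3, a subunit of IL27 and IL35, rose by 2.62 ± 0.10 and the proinflammatory cytokine IL32 by 2.55 ± 0.12.

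Of 23 genes of the IL1 receptors and proximal signalling, 11 rose, 1 fell and 11 did not pass, with a median of 0.22. IRAK2, a kinase of the receptor complex, rose by 2.48 ± 0.07. IRAK3, a family member that inhibits the complex, went from 4.13 ± 0.21 (SD, n = 3) to 6.19 ± 0.25 (SD, n = 4). Replicate 3 was the highest of the 4 h arrays of IRAK3 and the groups did not overlap. IKBKE, a kinase linked to interferon induction, rose by 1.87 ± 0.09 and MAP3K8, a kinase that activates ERK signalling, by 1.14 ± 0.10.

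All 5 NF-kB subunits rose, with a median of 1.98. NFKB1, the precursor of p50, rose by 2.46 ± 0.09, RELB by 2.25 ± 0.09, NFKB2, the precursor of p52, by 1.98 ± 0.09 and REL by 1.16 ± 0.09. All 6 IkB proteins rose as well, with a median of 1.12. NFKBIA, which encodes IkB alpha, was at 11.84, 11.87 and 11.72 before IL1B and at 12.79, 12.73, 12.73 and 12.68 after 4 h. The arrays of each hour lay close together and did not overlap those of the other. It rose 1.90-fold (adjusted p = 1.30e-13). NFKBID, a nuclear IkB, rose by 2.56 ± 0.08, NFKBIE, a cytoplasmic inhibitor, by 1.50 ± 0.09 and NFKBIZ, a nuclear cofactor for late genes, by 1.31 ± 0.06.

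Of 19 NF-kB feedback regulators, of the A20 type and others, 13 rose, 1 fell and 5 did not pass. TNFAIP3, which encodes the ubiquitin-editing enzyme A20, was at 8.15, 7.97 and 8.20 before IL1B and at 11.79, 11.71, 11.85 and 11.93 after 4 h. It rose 13.1-fold, by 3.71 ± 0.08 (adjusted p = 2.96e-28), with no overlap. The adaptor TRAF1 rose by 3.35 ± 0.13 and TNFAIP2 by 2.39 ± 0.07. ZC3H12A, the RNase Regnase-1 that degrades cytokine transcripts, rose by 2.19 ± 0.15, although its 0 h arrays ranged from 9.29 to 10.27. Among 14 genes listed with the mRNA decay factors, 8 rose, 2 fell and 4 did not pass. That list was broader than its name. Its rises include TTC39B (1.46) and ARID5A (0.42), which belong to neither the ZFP36 nor the Regnase family. Another probe set of ARID5A differed by 0.11 and did not pass (limma adjusted p = 0.322). ZC3H12C, a relative of Regnase-1, rose by 2.03 ± 0.10. The call for ZFP36, tristetraprolin, at 0.75 ± 0.21, was lost without knockdown 0 h replicate 4 (0.52, adjusted p = 0.0854).

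Of 29 survival and death regulators 18 rose, 3 fell and 8 did not pass. TNFRSF9, a costimulatory receptor of the TNF receptor family also called CD137, was at 7.51, 7.06 and 7.76 before IL1B and at 11.34, 11.16, 11.08 and 11.10 after 4 h. It rose by 3.73 ± 0.12 (adjusted p = 3.44e-23). The groups did not overlap, and replicate 2 was the lowest at 0 h. The antiapoptotic BCL2A1 rose by 3.47 ± 0.15, the receptor CD40 by 2.05 ± 0.15 and RIPK2, a kinase of NOD receptor signalling, by 1.97 ± 0.11. The proapoptotic BH3 genes PMAIP1 and BBC3 rose too, by 1.27 ± 0.10 and 0.91 ± 0.10, as did the death receptor TNFRSF10B by 0.85 ± 0.07.

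Of 13 adhesion molecules 8 rose, 1 fell and 4 did not pass. ICAM1, the ligand of leukocyte beta 2 integrins, was at 6.69, 6.69 and 6.58 before IL1B and at 12.74, 12.81, 12.60 and 12.64 after 4 h. The arrays within each hour differed little and the groups were 66.2-fold apart, a rise of 6.05 ± 0.12 (adjusted p = 3.80e-29). SELE, an adhesion molecule known from activated endothelium, was at 4.34, 4.51 and 4.69 before IL1B and at 8.86, 8.66, 8.65 and 8.39 after 4 h. It rose by 4.13 ± 0.16 without overlap. VCAM1 rose by 2.64 ± 0.14 and ICAM4 by 1.39 ± 0.15.

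Secreted and barrier genes followed. Of 19 acute-phase, complement and antimicrobial genes 10 rose, 1 fell and 8 did not pass. TNFAIP6, a hyaluronan-binding protein, rose by 5.41 ± 0.17, the pentraxin PTX3 by 4.63 ± 0.16, the protease inhibitor SERPINA3 by 3.77 ± 0.18 and the elastase inhibitor PI3 by 3.69 ± 0.24. SOD2, the mitochondrial superoxide dismutase, went from 8.52 ± 0.11 (SD, n = 3) to 11.79 ± 0.03 (SD, n = 4). Of 21 genes of matrix proteases, the plasminogen system and hyaluronan, 14 rose, 1 fell and 6 did not pass. OLR1, a scavenger receptor for oxidised lipoprotein, rose by 5.29 ± 0.19, the collagenase MMP1 by 2.94 ± 0.23, the stromelysin MMP10 by 2.30 ± 0.19 and the plasminogen activator PLAT by 2.71 ± 0.14. PLAU, the urokinase gene, rose by 1.64 ± 0.10. Of 23 integrins, laminins and collagens 8 rose, 3 fell and 12 did not pass, among them ITGB8, a subunit of an integrin that activates latent TGF-beta, up by 2.70 ± 0.11, and LAMB3, a basement membrane laminin, up by 2.22 ± 0.12.

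Transcription factors of the immediate-early class were split at this hour, with 10 of 26 up, 7 down and 9 not passing. FOS, a subunit of AP-1, was at 12.01, 11.97 and 11.59 before IL1B and at 10.49, 10.67, 10.24 and 10.12 after 4 h. It fell by 1.48 ± 0.17 (adjusted p = 2.24e-08) and its groups did not overlap. NR4A3, an orphan nuclear receptor, fell by 1.40 ± 0.18, although its 0 h arrays ranged from 7.56 to 8.71. ETS1 rose by 1.98 ± 0.10 and CEBPD, a factor of the acute-phase response, by 1.72 ± 0.07. EGR3 differed by -0.14 ± 0.24 and did not pass the test (adjusted p = 0.734). Of 17 MAP kinase phosphatases and Sprouty genes 6 rose, 3 fell and 8 did not pass. DUSP16 and DUSP10, phosphatases that act on JNK and p38, rose by 2.03 ± 0.07 and 1.94 ± 0.08, and DUSP6, which acts on ERK, by 0.94 ± 0.10. Of 11 Krueppel-like factors 4 rose, 3 fell and 4 did not pass. KLF4 and KLF6 rose by 0.74 ± 0.12 and 0.65 ± 0.07, while KLF2 and KLF7 fell by 0.40 ± 0.11 and 0.78 ± 0.11.

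Cytokine receptors and the JAK-STAT pathway rose in 21 of 37 cases, with 5 falls and 11 that did not pass. STAT5A, a transcription factor downstream of several cytokine receptors, went from 7.25 ± 0.05 (SD, n = 3) to 10.55 ± 0.13 (SD, n = 4), a rise of 3.30 ± 0.10. IL15RA rose by 1.84 ± 0.07, and the interferon receptor chains IFNAR2 and IFNGR1 by 1.78 ± 0.09 and 1.73 ± 0.09. Interferon-stimulated genes rose in 33 of 47 cases and the other 14 did not pass, with a median of 0.87. MX1, an antiviral GTPase, was at 5.14, 5.35 and 5.25 before IL1B and at 7.40, 7.20, 7.46 and 7.30 after 4 h. It rose by 2.09 ± 0.23 (adjusted p = 8.00e-09) with no overlap of the groups. SAMD9L rose by 2.50 ± 0.15, the guanylate-binding proteins GBP3 and GBP4 by 2.35 ± 0.11 and 2.23 ± 0.14, the RNA sensor IFIH1 by 2.09 ± 0.16 and the transcription factor IRF1 by 2.00 ± 0.19. Of 8 genes of MHC class I antigen presentation 5 rose and 3 did not pass. The immunoproteasome subunit PSMB10 rose by 1.35 ± 0.13, the peptidases ERAP2 and ERAP1 by 0.86 ± 0.14 and 0.57 ± 0.08 and the light chain B2M by 0.53 ± 0.11.

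Lipid mediator genes showed smaller changes. Of 15 genes of prostaglandin synthesis, transport and receptors 4 rose, 2 fell and 9 did not pass. PTGS2, the inducible cyclooxygenase, was at 12.27 ± 0.18 (SD, n = 3) at 0 h and rose by 0.99 ± 0.09, and the prostaglandin E synthase PTGES rose by 0.50 ± 0.07. PTGER2, a receptor of prostaglandin E2, was at 6.95, 6.94 and 6.61 before IL1B and at 6.68, 6.26, 5.91 and 5.83 after 4 h. It fell by 0.66 ± 0.19 with overlapping groups, and was lower at 4 h in all 3 same-numbered pairs.

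In sphingolipid metabolism the de novo pathway and the turnover pathway differed in their counts. Of 13 genes of de novo synthesis and the ORMDL family 1 fell and 12 did not pass, with a median of 0.04. The gene that fell was CERS4, a ceramide synthase, by 0.43 ± 0.11. The paralogs of the depleted gene were at differences of 0.23 ± 0.10 for ORMDL1 (adjusted p = 0.0755) and 0.02 ± 0.07 for ORMDL2 (adjusted p = 0.897), and 3 of 18 alternative settings called ORMDL1. Of 26 genes of sphingolipid turnover and sphingosine 1-phosphate signalling 14 rose, 5 fell and 7 did not pass, with a median of 0.21. SGPP2, a phosphatase of sphingosine 1-phosphate, was at 6.79, 6.52 and 6.52 before IL1B and at 8.97, 9.10, 8.98 and 8.65 after 4 h. The groups did not overlap, and SGPP2 rose 4.99-fold, by 2.32 ± 0.16 (adjusted p = 1.44e-13). Its paralog SGPP1 differed by -0.04 ± 0.09 (adjusted p = 0.82). SPHK1, the kinase that makes sphingosine 1-phosphate, was at 7.10, 6.72 and 7.16 before IL1B and at 8.53, 8.44, 8.16 and 8.52 after 4 h and rose by 1.42 ± 0.14. UGCG, which makes glucosylceramide, rose by 1.20 ± 0.15, and replicate 1 was the highest of its 4 h arrays at 10.39. SPNS2, an exporter of sphingosine 1-phosphate, rose by 1.07 ± 0.13.

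**Figure D3:**
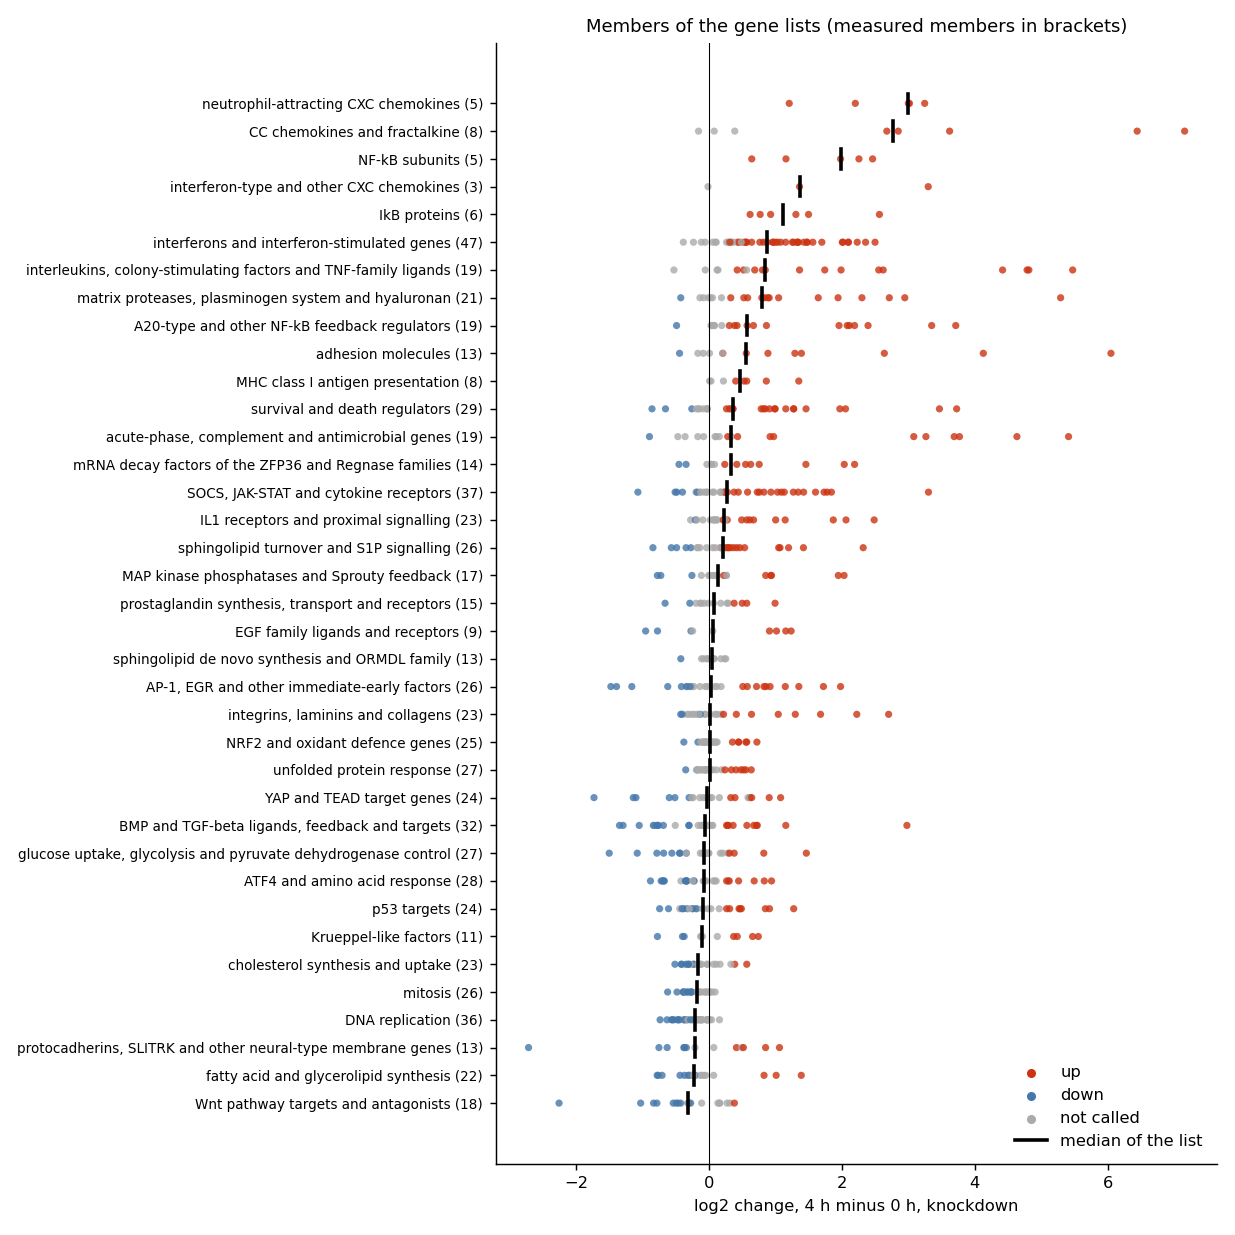
Log2 change from 0 h to 4 h in the knockdown arm (x axis) of every measured member of 37 gene lists (rows, with the number measured in brackets), red where called up, blue where called down and grey where not called, with the list median as a black bar. Medians run from 3.00 for the neutrophil-attracting CXC chemokines to -0.31 for the Wnt pathway, beside -0.05 for all probe sets.

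SLITRK6, a membrane protein with leucine-rich repeats known from neurons and the inner ear, fell most. It was at 8.36, 8.49 and 7.92 before IL1B and at 5.82, 5.39, 6.06 and 4.88 after 4 h. The 4 h arrays spread widely, from 4.88 in replicate 4 to 6.06 in replicate 3, and did not overlap the 0 h arrays. It fell by 2.72 ± 0.24 (adjusted p = 5.36e-11), to 15.2% of the 0 h level. RNF43, a ubiquitin ligase that removes Wnt receptors from the surface, was at 8.15, 8.35 and 8.23 before IL1B and at 5.98, 6.21, 6.18 and 5.56 after 4 h. It fell by 2.26 ± 0.14 (adjusted p = 4.53e-15), to 20.9% of the 0 h level, and its groups did not overlap.

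Of 18 Wnt targets and antagonists 10 fell, 1 rose and 7 did not pass, with a median of -0.31. Besides RNF43 these were led by NKD1, an inhibitor of dishevelled, down by 1.03 ± 0.16, the R-spondin receptor LGR4, down by 0.84 ± 0.07, and TNFRSF19, down by 0.79 ± 0.12. The secreted antagonist DKK1 fell by 0.54 ± 0.06. The Wnt receptor FZD2 and the planar polarity gene PRICKLE1 were among the 15 strongest falls, by 1.58 ± 0.07 and 1.58 ± 0.16. That group also held the pseudokinase PRAG1 (-1.95 ± 0.15), the transcription cofactor LBH (-1.91 ± 0.11), the homeobox factor ALX1 (-1.78 ± 0.13), the ETS factor ETV1 (-1.55 ± 0.08), the insulin receptor substrate IRS1 (-1.72 ± 0.15), the hedgehog receptor PTCH1 (-1.71 ± 0.12) and the cAMP phosphodiesterase PDE7B (-1.66 ± 0.08).

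Targets of the coactivator YAP were split, with 6 of 24 up, 6 down and 12 not passing. CCN2, a matricellular protein, was at 11.24, 11.14 and 10.97 before IL1B and at 9.42, 9.35, 9.32 and 9.45 after 4 h. It fell by 1.73 ± 0.12 (adjusted p = 1.61e-13) without overlap. CCN1 fell by 1.10 ± 0.15 and ANKRD1 by 1.14 ± 0.15, while FJX1 rose by 1.08 ± 0.12. Of 32 genes of BMP and TGF-beta signalling 10 rose and 10 fell. INHBA, the activin A subunit, rose by 2.98 ± 0.16 and the ubiquitin ligase SMURF2 by 1.15 ± 0.12. The inhibitory SMAD6 fell by 1.35 ± 0.11 and ID2, a target of BMP signalling, by 1.30 ± 0.12. Of 9 EGF family genes 4 rose and 3 fell: the ligands HBEGF, EREG and NRG1 rose by 1.23 ± 0.14, 1.15 ± 0.10 and 1.01 ± 0.09, and NRG4 fell by 0.96 ± 0.18.

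Of 23 cholesterol genes 7 fell, 2 rose and 14 did not pass. MVK and IDI1, enzymes of the mevalonate pathway, fell by 0.52 ± 0.10 and 0.42 ± 0.08, and ABCA1, a cholesterol exporter, rose by 0.57 ± 0.15. Of 22 genes of fatty acid and glycerolipid synthesis 8 fell, 3 rose and 11 did not pass. The elongase ELOVL7 and the acyl-CoA synthetases ACSL5 and ACSL4 rose by 1.39 ± 0.08, 1.01 ± 0.15 and 0.83 ± 0.06, and the carboxylase ACACB fell by 0.78 ± 0.08. Of 27 genes of glucose handling 8 fell, 4 rose and 15 did not pass. SLC2A3, a glucose transporter, fell by 1.50 ± 0.14, and PDK4, a kinase that inhibits pyruvate dehydrogenase, was at 11.09, 11.02 and 10.65 before IL1B and at 10.02, 9.94, 9.79 and 9.59 after 4 h, a change of -1.08 ± 0.17. The transporter SLC2A6 rose by 1.46 ± 0.09.

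The stress pathway lists held both rises and falls, beside 12.6% of all probe sets called up and 17.5% called down. Of 27 unfolded protein response genes 7 rose, 2 fell and 18 did not pass, with a median of 0.01. DNAJB9, a chaperone, rose by 0.63 ± 0.12 and ERN1, the sensor IRE1, by 0.55 ± 0.07. The chaperone HSPA5, or BiP, was at 12.74, 12.68 and 12.54 before IL1B and at 12.61, 12.51, 12.34 and 12.44 after 4 h, with overlapping groups. Its difference of -0.18 ± 0.07 (adjusted p = 0.0441) lost the call without any 1 of 5 arrays, knockdown 0 h replicates 1 and 2 and knockdown 4 h replicates 2, 3 and 4 (-0.19 to -0.13, adjusted p of 0.0515 to 0.217). It was also lost in fits of only the 7 or 15 arrays compared and after subtraction of array medians. HSPA5 was lower at 4 h in all 3 same-numbered pairs, and with the replicate block the difference was -0.17 (adjusted p = 0.0197). Of 28 ATF4 and amino acid response genes 10 fell, 6 rose and 12 did not pass. TRIB3, a pseudokinase, fell by 0.88 ± 0.08, and STC2 and ATF5 rose by 0.94 ± 0.19 and 0.83 ± 0.10. Of 25 NRF2 and oxidant defence genes 6 rose, 2 fell and 17 did not pass, among them the thioredoxin reductase TXNRD1 with 0.72 ± 0.06, OSGIN1 with 0.57 ± 0.11 and the glutathione synthesis subunit GCLM with 0.55 ± 0.07.

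Of 36 DNA replication genes 13 fell and 23 did not pass, with a median of -0.21. PRIM1, a primase subunit, was at 8.81, 8.79 and 8.81 before IL1B and at 8.13, 7.99, 8.19 and 7.95 after 4 h. It fell by 0.74 ± 0.10 (adjusted p = 5.35e-07), and RFC4, a clamp loader subunit, fell by 0.63 ± 0.08. Of 26 mitosis genes 10 fell and 16 did not pass, with HMMR and CDC20 down by 0.63 ± 0.12 and 0.48 ± 0.12. Another probe set of CDC20 differed by -0.17 and did not pass (limma adjusted p = 0.225). Of 24 p53 targets 8 rose, 7 fell and 9 did not pass. PMAIP1, BBC3 and TNFRSF10B, given above, led the rises and SESN1, a sestrin, led the falls with -0.75 ± 0.12. Of 13 protocadherins, SLITRK and other neural-type membrane genes 6 fell, 4 rose and 3 did not pass. The falls include SLITRK6, the strongest fall of all. The guidance receptor ROBO1 rose by 1.06 ± 0.06.

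The 4 h arrays were next placed among the other hours of the knockdown arm. From 2 to 4 h, 2119 probe sets changed (14.6% of those tested), with 1133 up (7.82%) and 986 down (6.81%). The strongest rises of single genes were interferon-stimulated: MX1 by 1.79 ± 0.22, SAMD9L by 1.72 ± 0.14 and IFIT1 by 1.71 ± 0.24. MX1 was at 5.58, 5.46, 5.72 and 5.44 in the 4 arrays at 2 h, below every 4 h array. Of the strongest falls, EGR3 fell by 1.85 ± 0.22, NR4A3 fell by 1.62 ± 0.17 and NFKBID fell by 1.59 ± 0.07. NFKBID was at 7.01, 7.01 and 6.98 before IL1B, and its means were 11.15 at 2 h and 9.56 at 4 h, so its 4 h level lay between those at 0 and 2 h.

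From 4 to 8 h, 3265 probe sets changed (22.5% of those tested), with 1420 up (9.8%) and 1845 down (12.7%). SELE fell by 3.59 ± 0.15. RASSF5, an effector of Ras and Rap, fell by 3.51 ± 0.10 and PTX3 fell by 2.88 ± 0.15. SELE was at 4.88, 5.04, 5.19 and 5.09 at 8 h, far below every 4 h array. IL11, a cytokine of the IL6 family, rose by 1.96 ± 0.13, SLITRK6 by 1.91 ± 0.23 and CEMIP, a hyaluronan-degrading protein, by 1.86 ± 0.14. IL11 had differed by 0.12 ± 0.14 from 0 to 4 h (adjusted p = 0.597) and reached 10.57 ± 0.21 (SD, n = 4) at 8 h. The mean of CCL20 was 12.45 at 2 h, 12.24 at 4 h and 9.96 at 8 h. That of ICAM1 was 13.06, then 12.70, then 10.51 at the same hours, and that of IL1A 11.29, then 10.30, then 8.35. CCL5 stood at a mean of 11.28 at 4 h and 11.38 at 8 h, and SOD2 at 11.79 and 11.69. These contrasts share the 4 h arrays with each other and with the comparison to 0 h.

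**Figure D4:**
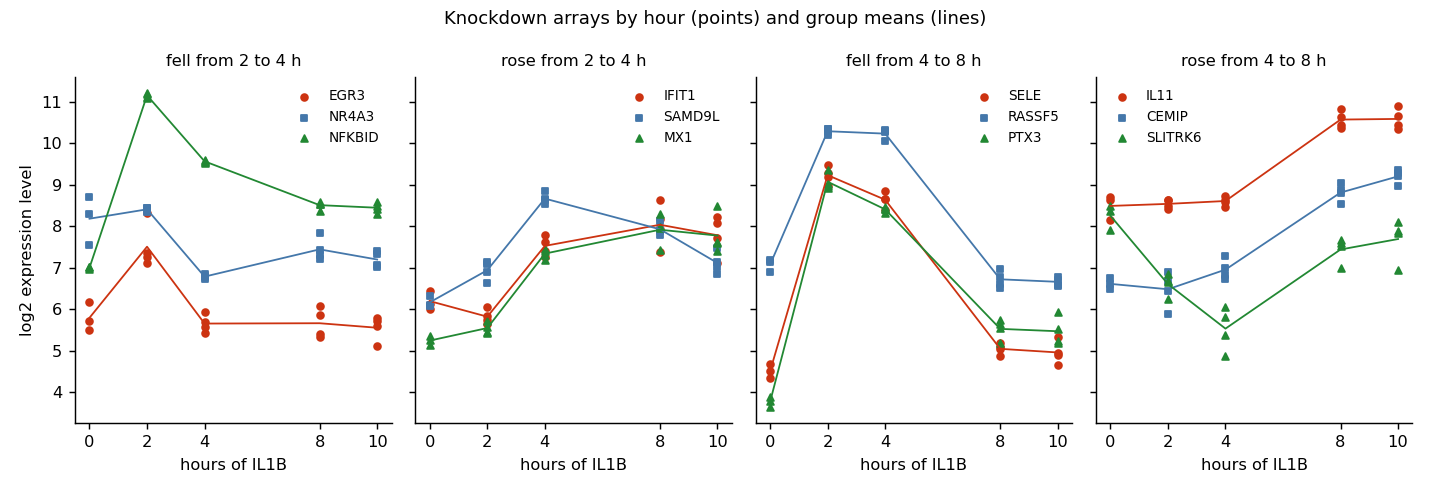
Log2 level (y axis) by hours of IL1B (x axis) of 12 genes in the knockdown arm, each point 1 array and each line joining group means, in 4 panels for the 3 strongest falls and rises from 2 to 4 h and from 4 to 8 h. NFKBID drops from 11.15 to 9.56 between 2 and 4 h, and SELE from 8.64 to 5.05 between 4 and 8 h.

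The last comparison asked whether depleted cells answered 4 h of IL1B differently from control cells. In the control arm 5484 probe sets changed, 37.9% of those tested. The arms share no array, and 3666 probe sets were called in the same direction in both, 84.2% of the knockdown calls and 66.8% of the control calls. Across the 14488 probe sets, which are not independent replicates, the changes of the arms had a Pearson r of 0.936. The difference in response, tested directly by limma, passed for 10 probe sets (0.069% of those tested), with 9 lower (0.0621%) and 1 higher (0.0069%) in knockdown, and 796 had an unadjusted p under 0.05. With the replicate number as a block 30 passed.

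Among the 10, TNFRSF9 differed most. The control arrays were at 6.05, 6.00, 6.00 and 5.96 at 0 h and at 11.09, 11.03, 11.09 and 10.78 at 4 h, beside the knockdown arrays given above. Every knockdown array at 0 h was above every control array at 0 h, by 1.44 ± 0.12 on average (adjusted p = 4.08e-10). The 4 h levels of the arms overlapped, with a difference of 0.17 ± 0.11 (adjusted p = 0.585). At 4 h 267 probe sets differed between the arms, 1.84% of those tested. The rise was 3.73 ± 0.12 in knockdown and 4.99 ± 0.11 in control, a difference of -1.27 ± 0.16 (95% confidence interval -1.59 to -0.94, adjusted p = 2.73e-05). EBI3 showed a like pattern. It was at 7.15, 7.29 and 7.22 in knockdown and 6.34, 6.14, 6.36 and 6.38 in control at 0 h. After 4 h the knockdown arrays were at 9.92, 9.88, 9.85 and 9.71 and the control arrays at 9.71, 9.61, 9.89 and 9.78, so the arms overlapped then and not before. Its rise was 2.62 ± 0.10 in knockdown and 3.44 ± 0.09 in control, a difference of -0.82 ± 0.13 (95% confidence interval -1.09 to -0.56, adjusted p = 0.00211). The calls for TNFRSF9 and EBI3 held under all 25 alternative settings run.

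IL6 was at 5.38, 5.50, 5.53 and 5.56 in the control arrays at 0 h and at 10.74, 10.82, 10.72 and 10.94 at 4 h, and every knockdown array was above the control arrays at 0 h and below them at 4 h. The knockdown minus control difference was 0.53 ± 0.13 at 0 h (adjusted p = 0.0163) and -0.36 ± 0.12 at 4 h (adjusted p = 0.149). Its rise differed by -0.89 ± 0.18 (adjusted p = 0.034). The differences were -0.86 ± 0.17 for IL32, -0.75 ± 0.14 for PLAU and -0.59 ± 0.12 for NFKB2 (adjusted p = 0.034, 0.0239 and 0.034). The 1 gene with a larger value in knockdown was DKK1, which fell by 0.54 ± 0.06 in knockdown and by 0.94 ± 0.05 in control, a difference of 0.40 ± 0.08 (adjusted p = 0.034). The probe sets 8116418, 7943413 and 8130422, which had no single gene symbol, differed by -0.85, -0.87 and -0.43. At 0 h, 8 of the 10 were called higher in knockdown than in control, beside 337 probe sets called higher of 14488 (2.33%). That comparison shares its 0 h arrays with the difference in response.

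In a fit of only the 15 arrays compared, the 8 besides TNFRSF9 and EBI3 lost the call, 8116418 with an adjusted p of 0.0512. IL6, IL32, NFKB2 and 8130422 also lost it after quantile normalization and after subtraction of array medians (adjusted p of 0.0532 to 0.127). IL6 lost it with array weights (-0.70, adjusted p = 0.0653) and 8130422 with a variance trend (adjusted p = 0.0813). The loss of a single array ended 7 of the calls. The call for IL6 was lost without any 1 of 11 of the 15 arrays (knockdown 0 h replicate 1, knockdown 4 h replicates 1, 2 and 3, control 0 h replicates 1, 2 and 3 and all 4 control arrays at 4 h), with values of -0.92 to -0.67. That for NFKB2 was lost without any 1 of 11 arrays (knockdown 0 h replicates 1 and 4, knockdown 4 h replicates 1, 2 and 3, control 0 h replicates 1, 2 and 3, control 4 h replicates 1, 3 and 4), with values of -0.62 to -0.48. That for IL32 was lost without any 1 of 10 arrays (knockdown 0 h replicates 1 and 2, knockdown 4 h replicates 2, 3 and 4, control 0 h replicates 2 and 3, control 4 h replicates 1, 2 and 3), with values of -0.87 to -0.79. That for DKK1 was lost without any 1 of 8 arrays (knockdown 0 h replicates 1 and 4, knockdown 4 h replicates 1 and 2, control 0 h replicates 2 and 3, control 4 h replicates 2 and 3), with values of 0.36 to 0.40. That for PLAU was lost without any 1 of 6 arrays (knockdown 0 h replicate 4, knockdown 4 h replicates 3 and 4, control 0 h replicate 2, control 4 h replicates 1 and 2), with values of -0.75 to -0.68. The probe set 7943413 lost its call without knockdown 0 h replicate 4 (-0.80, adjusted p = 0.0622) and 8130422 without any 1 of 14 arrays (-0.45 to -0.38), control 0 h replicate 1 being the exception.

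**Figure D5:**
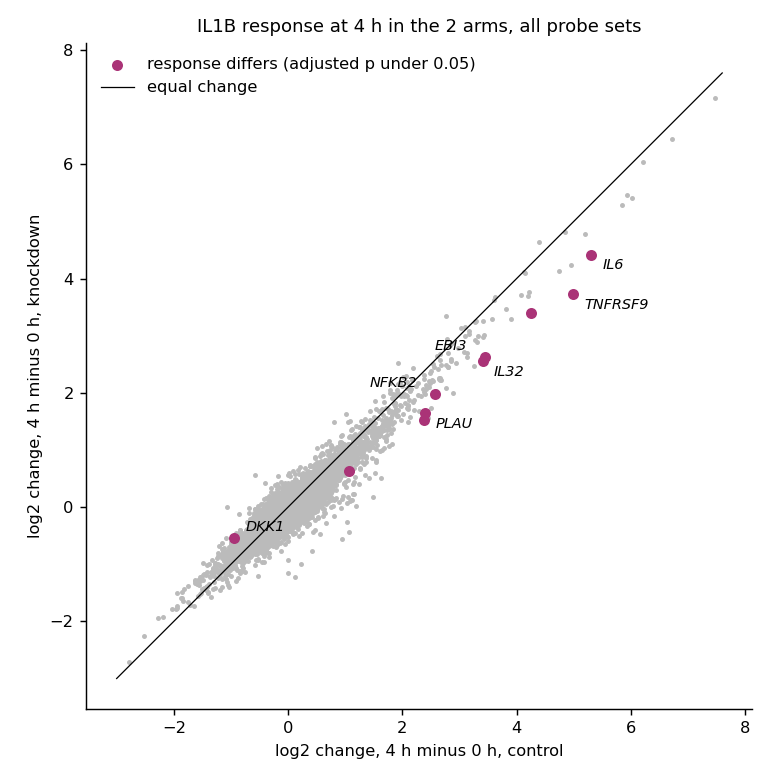
Log2 change from 0 h to 4 h in the knockdown arm (y axis) against that in the control arm (x axis) for all 14488 probe sets, with the line of equal change and the 10 probe sets whose response differed in purple. IL6 lies at 4.42 in knockdown and 5.31 in control, and TNFRSF9 at 3.73 and 4.99.

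Over all probe sets, 54.7% had a lower change in knockdown than in control. The lists lay on both sides of that share, from 4 of 22 genes of fatty acid and glycerolipid synthesis and 6 of 18 Wnt genes to 45 of 47 interferon-stimulated genes and 5 of 5 NF-kB subunits. For the interferon-stimulated genes the changes were lower in knockdown, with medians of 0.87 and 1.03, and limma called 0 of their differences in response, with 4 at an unadjusted p under 0.05. All 5 NF-kB subunits had smaller rises in knockdown, with medians of 1.98 and 2.57, of which NFKB2 passed and 3 had an unadjusted p under 0.05. For 19 interleukins and related ligands the medians were 0.84 and 1.18, and 3 differences passed. The levels of 115 small nucleolar and Cajal body RNAs moved beside these values. Their mean lay between 6.88 and 7.32 in control arrays at 0 h and between 7.38 and 7.57 in knockdown arrays at 0 h, and between 7.23 and 7.94 in control and between 7.28 and 7.70 in knockdown at 4 h. Their median change was 0.48 in control and 0.09 in knockdown. With that mean level as a covariate 7 differences in response passed. Of the 10, 6 kept the call and 4 lost it: IL6 (-0.80, adjusted p = 0.119), IL32 (-0.77, adjusted p = 0.119), PLAU (-0.68, adjusted p = 0.108) and probe set 8130422 (-0.42, adjusted p = 0.11).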

How the data were processed

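Gene expression was measured in A549 cells on 38 Affymetrix arrays in 10 groups of 3 or 4, and the values used were the deposited log2 expression values of 14488 probe sets. The authors made these log2 values with Affymetrix Power Tools and RMA and used limma 3.22.7 and build hg19, per the submitters' processing notes. RMA brings arrays close to a common distribution, so changes are relative to the array as a whole. The array medians of the deposited values still ran from 8.02 to 8.19. Precision is limited by how many arrays each group had. Samples were grouped by their titles. Here limma 3.58.1 in R 4.3.3 fitted group means to all 38 arrays with lmFit and eBayes (residual df 28), and p-values were adjusted over all probe sets by Benjamini-Hochberg, with a threshold of 0.05. The difference in response is the knockdown change minus the control change. ORMDL3 was also tested by exact permutation. The members and lists were chosen with earlier results of these data known. Named genes were the strongest changes, up to 4 members per list and fixed pathway genes. The 12132 probe sets with 1 symbol were named (12121 matched to RefSeq), 628 had several symbols and 1728 none. For the 209 genes with several probe sets, 1 was used. The main fit had no term for replicate number. Same-numbered arrays at 0 and 4 h of knockdown deviated together (r of 0.32, 0.19 and 0.25). In control, r between 0 and 4 h was 0.33, 0.16, 0.23 and 0.42, and another number was closer for replicate 2. Between knockdown and control arrays r was 0.26, 0.19 and 0.41 at 0 h. At 4 h it was 0.20, 0.20, -0.12 and 0.58, and another number was closer for replicates 1 and 3. The replicate block uses the numbers across both arms, so it rests on a pairing that held less evenly there. The limma script was tested on simulated data. Alternatives were other sample sets, replicate blocks, filters, variance models, normalizations, a covariate and each array left out.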

Additional observations from a re-analysis of the deposited data

Results flagged for a closer look

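Among 160 named genes and probe sets tested, single arrays of the knockdown group at 4 h lay far from the other 3 for 12 levels. Replicate 1 stood apart for CCL20 (12.4), IRAK2 (11.15), DUSP10 (9.915), UGCG (10.39), TXNRD1 (12.37), SLC2A3 (8.39) and probe set 8116418 (12.14). Replicate 2 stood apart for RASSF5 (10.06), ELOVL7 (10.84) and probe set 8130422 (7.931), replicate 3 for IRAK3 (6.565) and replicate 4 for CXCL10 (6.802). Chance gives about 5% of groups such a value, which is about 8 of 160.

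The response to 4 h of IL1B differed between knockdown and control, by limma's test of the difference, for TNFRSF9 (-1.27), IL6 (-0.894), IL32 (-0.863), EBI3 (-0.825), PLAU (-0.75), NFKB2 (-0.59) and DKK1 (0.399), and for the probe sets 7943413 (-0.868), 8116418 (-0.846) and 8130422 (-0.427).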

How the results depend on the processing

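The count of 4354 probe sets changed between 0 and 4 h ranged from 2629 with dim probe sets left out to 5734 with array weights. Dim probe sets are those below the median mean level, so the 2629 come from fewer tested and are not a like count. A fit of only the 7 knockdown arrays at 0 and 4 h called 3275. That of only the 15 arrays at 0 and 4 h of both arms called 3817. With 1 array left out the count was 3462 to 4193. The replicate block gave 4989. With dim probe sets left out, the change from 2 to 4 h fell to 1396 and that from 4 to 8 h to 2043, where fewer probe sets were tested. With 1 array left out these counts were 1662 to 1965 and 2752 to 3129. The 10 differences in response became 2 in a fit of only the 15 arrays compared, 30 with the replicate block, 24 with that number as a random block, 17 without dim probe sets, 46 with array weights, 6 after quantile normalization and 6 after each array's median was subtracted, and the cause was not tested. With 1 array left out they numbered 5 to 12, and 5 or 6 without knockdown 0 h replicate 1 or 4, knockdown 4 h replicate 1, 2 or 3, control 0 h replicate 2 or 3, or control 4 h replicate 1, 2 or 3. ORMDL3 in knockdown minus control ranged from -1.879 to -1.694 at 0 h and from -1.79 to -1.545 at 4 h with 1 array left out. Subtracting medians moved the share of rises among the calls from 41.9% to 50.9%. In 3278 comparisons of named changes, 3232 kept their side of the threshold, and in 246 of differences in response 163 did. No called value changed direction, while 5 values that were not called (EGR3, IL11, ORMDL2, ORMDL3 and SGPP1) crossed 0 under at least 1 alternative.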
